A study of Homo sapiens with 8 samples.

Results

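Glycolysis and the response to low oxygen were followed through 38 genes of the 29991 entries measured. The genes were taken by symbol and comprised 15 glycolytic enzymes, 3 regulators that steer glucose carbon (PFKFB3, PFKFB4 and PDK1), 4 genes of oxygen sensing (HIF1A, ARNT, EGLN1 and EGLN3) and 16 other targets of the hypoxia-inducible factors (HIF). Polyadenylated RNA came from MCF10A, an immortalised, non-tumorigenic line of human breast epithelium. The cells had received siRNA that targets LATS1 and LATS2, kinases of the Hippo pathway (siLATS1/2), siRNA against p53 (sip53), all of these siRNAs together (siLATS1/2/p53), or a control siRNA (siControl). Each of the 4 groups had 2 libraries, 1 from each of 2 independent batches of cells, so that 8 libraries were compared. The groups are transient knockdowns in 1 immortalised line, and no low-oxygen exposure is given in the labels. All levels are deposited log2 values, in which everything below 5 had been set to 5 (the floor), and differences are given in log2 units with their standard error (SE). An adjusted p is that of limma, a linear model fitted to every entry at once, after Benjamini-Hochberg adjustment over the 12315 entries tested, with a threshold of 0.05. A second fit, called the batch-blocked fit, also took the batch as a term. With 2 batches per group, the p-values of the first fit rest only on the spread between those batches. Those of the batch-blocked fit rest on how far group differences varied between the 2 batches. Groups of 2 libraries often do not overlap, which held for 48.2% to 61.3% of all entries tested in single comparisons.

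Glycolysis splits glucose into pyruvate in the cytosol, and lactate dehydrogenase turns pyruvate into lactate when it is not passed to the mitochondria. In the presence of oxygen, prolyl hydroxylases of the EGLN family mark HIF1A for destruction. When oxygen is scarce, HIF1A persists, pairs with ARNT and switches on genes for glycolysis, blood vessel growth, pH control and matrix modification. Many of these genes also answer to other regulators, so their transcripts are not specific to low oxygen. LATS1 and LATS2 restrain the coactivators YAP and TAZ, and p53 is a transcription factor of the stress response.

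The targeted kinases and p53 readouts were checked first. LATS1 had 7.93 and 8.10 in the siLATS1/2 libraries, 9.87 and 9.94 in sip53, 7.97 and 7.90 in siLATS1/2/p53 and 9.54 and 9.64 in siControl. LATS2 differed by -1.39 ± 0.14 in siLATS1/2 and -1.29 ± 0.14 in siLATS1/2/p53, each relative to siControl. Both kinase transcripts were therefore lower in every library that received LATS1/2 siRNA than in every library that did not. CDKN1A, a p53 target that arrests the cell cycle, had 12.88 and 13.07 in the siLATS1/2 libraries, 9.82 and 10.06 in sip53, 9.89 and 10.16 in siLATS1/2/p53 and 12.29 and 12.83 in siControl, and it was lower in all libraries with p53 siRNA. Of 8 mammary basal markers, 8 were above the floor in all 8 libraries, with summed linear levels of 178024 to 219765 in siLATS1/2, 169181 to 217146 in sip53, 169589 to 206384 in siLATS1/2/p53 and 209153 to 280498 in siControl. Of 6 luminal markers, PGR and KRT19 were at the floor in every library, and the list summed to 5477 to 7549 in siLATS1/2, 2801 to 3675 in sip53, 6821 to 8834 in siLATS1/2/p53 and 2562 to 3284 in siControl. Relative to siControl, 2 of the 4 tested luminal markers rose in siLATS1/2, 0 in sip53 and 2 in siLATS1/2/p53, while 0, 1 and 3 of the 8 basal markers fell. All entries were called at 7.7% in siLATS1/2, 3.86% in sip53 and 14.6% in siLATS1/2/p53. Batch-blocked, 4, 0 and 3 luminal markers rose in those groups. Basal markers went both ways in that fit, where 6, 4 and 4 fell and 1 rose in each group. It called 32%, 26% and 39.2% of all entries. These markers moved with the siRNAs, as several genes below did, and their part in those differences was not tested. COL1A2, COL3A1, PDGFRB and LUM of 6 fibroblast markers and all 6 blood and endothelial markers were at the floor throughout. The other fibroblast markers were not: COL1A1 ranged from 6.60 to 7.75 over the 8 libraries, and DCN in batch 1 had 7.87 in siLATS1/2, 9.53 in sip53, 8.39 in siLATS1/2/p53 and 9.86 in siControl. In batch 2 DCN was at the floor in siLATS1/2 and siLATS1/2/p53, at 6.14 in sip53 and at 7.02 in siControl. In such bulk RNA, fewer cells of a type and less RNA per cell cannot be told apart. Between 11756 and 12064 entries lay above the floor in a library, and read depth is not given in the sources used here.

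Of the 38 genes, 37 exceeded the floor in 2 or more libraries, which made them testable, and 34 were above it in all 8. ANKRD37, an ankyrin repeat protein, was above the floor in siControl library 1 only, at 5.32, and was not tested. CA9, a membrane carbonic anhydrase, exceeded the floor in 3 libraries, all of batch 1, at 5.82 in siLATS1/2, 7.17 in sip53 and 6.09 in siControl. EGLN3, the prolyl hydroxylase PHD3, did so in 3 libraries, at 5.62 in siLATS1/2 library 1 and at 5.83 and 5.02 in siControl. ENO2, a second enolase isoform, was at the floor in siControl library 2 only. The floor can understate or hide differences of these partly floored genes. Where both libraries compared were at the floor, as for CA9 in batch 2, the size and sign of the difference are unknown. In all, 11 genes passed in at least 1 of the 5 comparisons of groups and 26 tested genes passed in none. The batch-blocked fit called 29 of the 37 in at least 1 of these comparisons, and 25 with rescaling added. Single comparisons of the batch-blocked fit called 22.1% to 43.5% of all entries. The share of all entries called in at least 1 comparison was not counted for any fit, so these counts over the 5 comparisons have no background. ALDOA, PFKFB4, EGLN1, EGLN3 and BNIP3 passed in none of these fits. Without the batch term there were 22 calls, of which ADM, CA12 and ANGPTL4 accounted for 13.

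**Figure D1:**
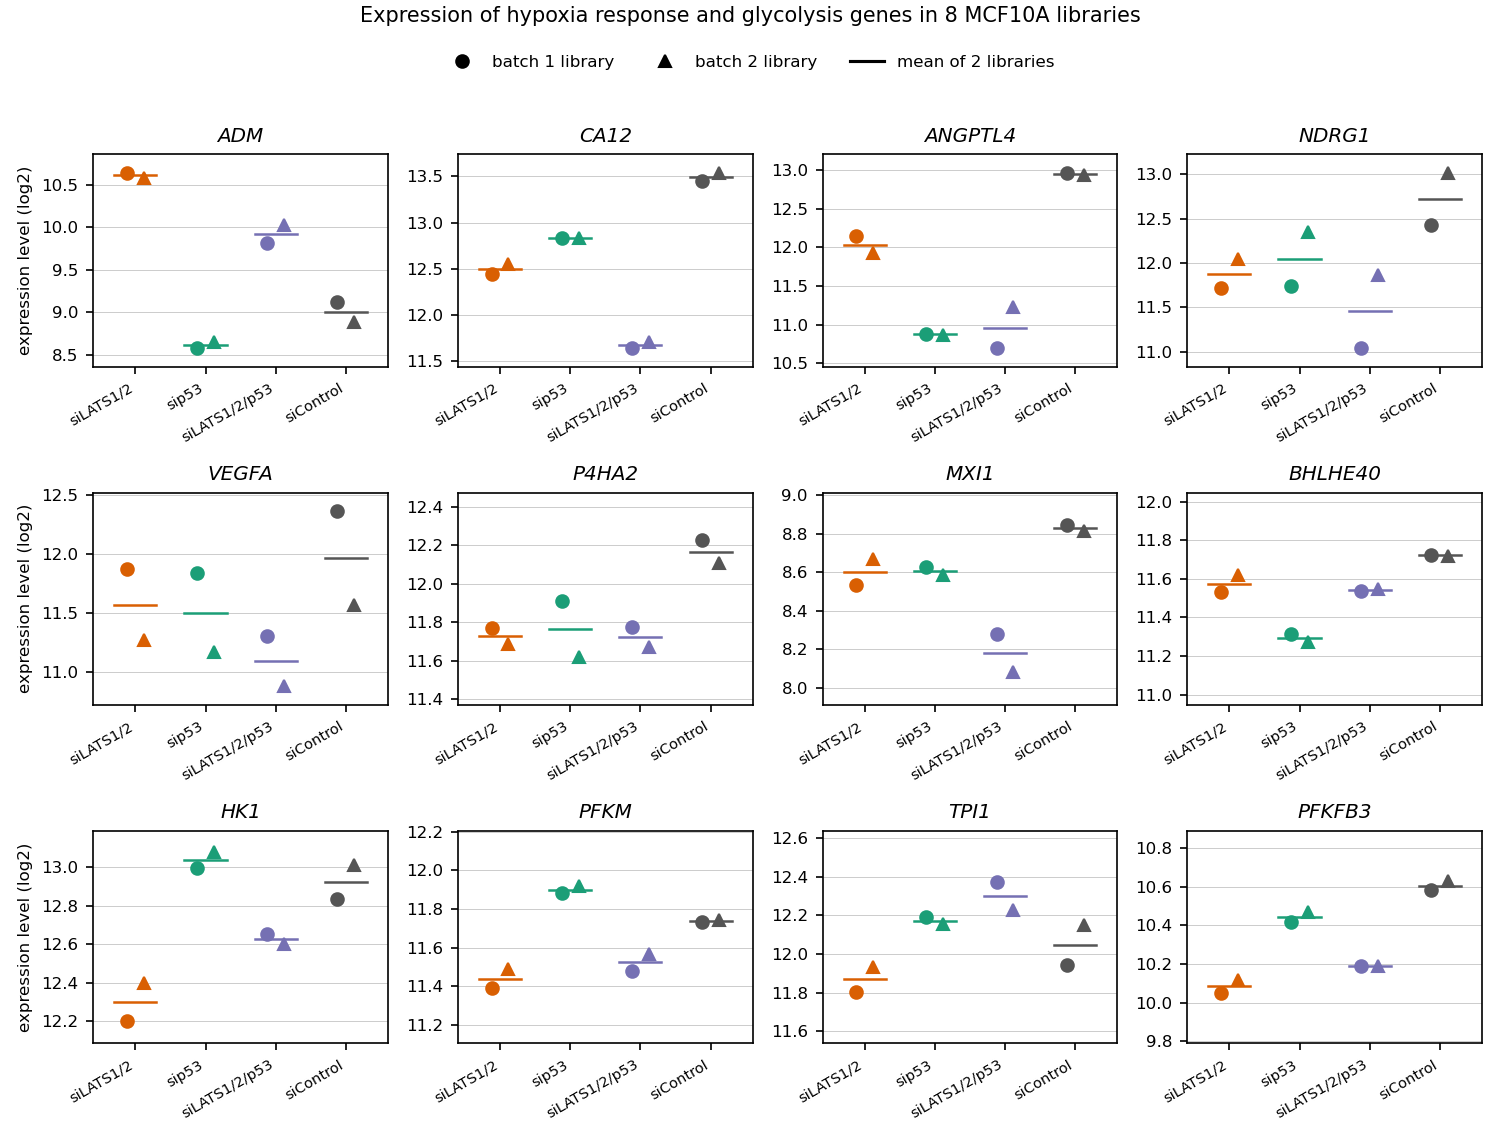
Deposited log2 level of 12 of the 38 genes, 1 panel each, in the siLATS1/2, sip53, siLATS1/2/p53 and siControl libraries from left to right. Points are single libraries of batch 1 and batch 2, and short bars are means of 2 libraries. ADM stands highest in siLATS1/2, CA12 and ANGPTL4 stand highest in siControl, and VEGFA and NDRG1 separate by batch within groups.

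ADM, CA12 and ANGPTL4 encode secreted or membrane products, and their promoters are shown because these genes carried most of the calls. The 250 bases before the annotated start are printed from RefSeq (GRCh38.p14), read along the gene from 5′ to 3′. Capitals mark the HIF core, ACGTG or GCGTG, or its complement on the other strand, CACGT or CACGC.
ADM (chr11:10304823-10305072, plus strand): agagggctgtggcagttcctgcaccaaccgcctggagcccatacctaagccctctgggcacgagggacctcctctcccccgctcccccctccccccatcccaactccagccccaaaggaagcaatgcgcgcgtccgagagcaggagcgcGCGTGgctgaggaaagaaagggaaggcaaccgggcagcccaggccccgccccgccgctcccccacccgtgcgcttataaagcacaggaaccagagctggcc
CA12 (chr15:63381847-63382096, minus strand): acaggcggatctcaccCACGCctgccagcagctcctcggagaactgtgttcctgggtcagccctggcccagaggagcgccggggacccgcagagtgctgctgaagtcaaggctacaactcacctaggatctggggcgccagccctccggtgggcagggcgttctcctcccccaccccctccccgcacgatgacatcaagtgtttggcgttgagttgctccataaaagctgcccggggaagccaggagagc
ANGPTL4 (chr19:8363905-8364154, plus strand): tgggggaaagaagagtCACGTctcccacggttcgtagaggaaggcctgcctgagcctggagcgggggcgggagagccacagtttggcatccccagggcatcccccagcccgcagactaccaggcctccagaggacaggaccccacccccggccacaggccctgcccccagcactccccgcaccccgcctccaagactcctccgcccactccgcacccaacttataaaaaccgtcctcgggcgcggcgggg
Each stretch held 1 match. Counted from the annotated start, with negative positions before it, the match began at -101 in ADM and at -234 in both CA12 and ANGPTL4. CA12 had another match at 39, outside the printed stretch. A match of these letters is not a site of binding.

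ADM, the gene of the vasodilator peptide adrenomedullin, was the member that rose most with LATS1/2 siRNA, at about 3 times its siControl level. It had 10.64 and 10.58 in the siLATS1/2 libraries, 8.57 and 8.65 in sip53, 9.81 and 10.02 in siLATS1/2/p53 and 9.12 and 8.88 in siControl. The 4 groups did not overlap, and siLATS1/2 was highest, with siLATS1/2/p53 next and sip53 lowest, below siControl. ADM rose by 1.61 ± 0.12 in siLATS1/2 relative to siControl, a 3.05-fold difference (adjusted p = 0.0018), and rose by 0.92 ± 0.12 in siLATS1/2/p53 relative to siControl (adjusted p = 0.00481). LATS1/2 siRNA also raised it on top of p53 siRNA, where ADM rose by 1.31 ± 0.12 relative to sip53 (adjusted p = 0.00288). Adding p53 siRNA to LATS1/2 siRNA moved it the other way, since it fell by 0.69 ± 0.12 relative to siLATS1/2 (adjusted p = 0.0143). In sip53 relative to siControl the difference was -0.39 ± 0.12 and did not pass (adjusted p = 0.131), although it did in the batch-blocked fit (adjusted p = 0.018). Both rises against siControl passed with any 1 library left out. The rise against sip53 did not pass without siLATS1/2/p53 library 2 (adjusted p = 0.0502), and the fall against siLATS1/2 did not pass without siLATS1/2 library 1, siLATS1/2 library 2 or siLATS1/2/p53 library 1 (adjusted p 0.0846 to 0.11).

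CA12, a membrane carbonic anhydrase that helps set the pH outside the cell, was lower under every knockdown and lowest under the combined one. It had 12.45 and 12.55 in the siLATS1/2 libraries, 12.83 and 12.83 in sip53, 11.64 and 11.71 in siLATS1/2/p53 and 13.45 and 13.54 in siControl. The order from low to high was siLATS1/2/p53, siLATS1/2, sip53 and siControl, with no overlap between groups. CA12 fell by 0.99 ± 0.08 in siLATS1/2 relative to siControl (adjusted p = 0.0018) and fell by 0.66 ± 0.08 in sip53 relative to siControl (adjusted p = 0.0118). In siLATS1/2/p53 it fell by 1.82 ± 0.08 relative to siControl, so that the siControl level was 3.52 times as high (adjusted p = 0.000211). The combined knockdown was also lower than each single one. There CA12 fell by 0.82 ± 0.08 relative to siLATS1/2 (adjusted p = 0.00479) and fell by 1.16 ± 0.08 relative to sip53 (adjusted p = 0.00108). The interaction, the departure from adding both differences on the log2 scale, was -0.16 ± 0.11 and did not pass (adjusted p = 0.811). The fall with sip53 did not pass when any 1 library of siLATS1/2, sip53 or siControl was left out (adjusted p 0.0521 to 0.124), nor the fall against siLATS1/2 without siLATS1/2 library 1 (adjusted p = 0.0662). The other 3 falls passed with any 1 library left out.

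ANGPTL4, a secreted inhibitor of lipoprotein lipase, fell most with p53 siRNA. It had 12.14 and 11.93 in the siLATS1/2 libraries, 10.88 and 10.87 in sip53, 10.69 and 11.23 in siLATS1/2/p53 and 12.97 and 12.94 in siControl. All knockdown libraries lay below both siControl libraries, siLATS1/2 was intermediate, and sip53 and siLATS1/2/p53 overlapped. ANGPTL4 fell by 2.08 ± 0.17 in sip53 relative to siControl (adjusted p = 0.00333), where siControl was 4.23 times as high, and fell by 1.99 ± 0.17 in siLATS1/2/p53 relative to siControl (adjusted p = 0.00124). With LATS1/2 siRNA alone it fell by 0.92 ± 0.17 relative to siControl (adjusted p = 0.0223), and with p53 siRNA added to that it fell by 1.08 ± 0.17 relative to siLATS1/2 (adjusted p = 0.00943). LATS1/2 siRNA on top of p53 siRNA gave a difference of 0.09 ± 0.17 relative to sip53 (adjusted p = 0.835). The interaction was 1.00 ± 0.23, a positive sign meaning a smaller fall with p53 siRNA where LATS1/2 siRNA was present. It did not pass (adjusted p = 0.74), did so in the batch-blocked fit (adjusted p = 0.015), and with rescaling added to that fit did not (adjusted p = 0.051). The interaction was 0.64 in batch 1 and 1.37 in batch 2. Both falls that included p53 siRNA against siControl passed with any 1 library left out. The fall with siLATS1/2 alone did not pass when any 1 library of siLATS1/2, sip53 or siControl was left out (adjusted p 0.0518 to 0.137). The fall against siLATS1/2 did not pass without siLATS1/2 library 1, siLATS1/2 library 2 or siLATS1/2/p53 library 1 (adjusted p 0.0524 to 0.0888).

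Among the remaining HIF targets, NDRG1, MXI1, P4HA2 and BHLHE40 each fell in 1 comparison with siControl before the batch was made a term. NDRG1, a stress-responsive gene linked to differentiation, had 11.72 and 12.05 in the siLATS1/2 libraries, 11.74 and 12.35 in sip53, 11.04 and 11.87 in siLATS1/2/p53 and 12.43 and 13.02 in siControl. Library 2 exceeded library 1 in all 4 groups, and all 6 knockdown libraries lay below both siControl ones. NDRG1 fell by 1.27 ± 0.33 in siLATS1/2/p53 relative to siControl (adjusted p = 0.042), a call that was lost when any 1 library was left out (adjusted p 0.0518 to 0.214). Its differences in siLATS1/2 (-0.84 ± 0.33, adjusted p = 0.161) and sip53 (-0.68 ± 0.33, adjusted p = 0.283) did not pass relative to siControl. Within batches they were -0.71 in batch 1 and -0.97 in batch 2 for siLATS1/2, and -0.69 in batch 1 and -0.67 in batch 2 for sip53. The batch-blocked fit called NDRG1 lower in siLATS1/2, sip53 and siLATS1/2/p53 than in siControl (adjusted p = 1.57e-05, 0.000174 and 2.18e-07), and lower in siLATS1/2/p53 than in siLATS1/2 and sip53 (adjusted p = 0.00243 and 0.000422). MXI1, a partner of MAX that opposes MYC, had 8.53 and 8.67 in the siLATS1/2 libraries, 8.63 and 8.59 in sip53, 8.28 and 8.08 in siLATS1/2/p53 and 8.84 and 8.81 in siControl. The siLATS1/2/p53 libraries were the lowest pair and did not overlap any other group, and MXI1 fell by 0.65 ± 0.12 relative to siControl (adjusted p = 0.0155). This call was lost without siControl library 1 (adjusted p = 0.0709), siControl library 2 (adjusted p = 0.052) or siLATS1/2/p53 library 2 (adjusted p = 0.0682). Batch-blocked, MXI1 was also called lower in siLATS1/2/p53 than in siLATS1/2 and sip53 (adjusted p = 0.0108 and 0.0182).

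P4HA2, a subunit of the prolyl hydroxylase that stabilises collagen, had 11.77 and 11.69 in the siLATS1/2 libraries, 11.91 and 11.62 in sip53, 11.78 and 11.67 in siLATS1/2/p53 and 12.23 and 12.11 in siControl. Both siControl libraries exceeded all others, while the 3 knockdown groups overlapped each other. P4HA2 fell by 0.44 ± 0.11 in siLATS1/2/p53 relative to siControl (adjusted p = 0.0395). Its differences were -0.44 ± 0.11 in siLATS1/2 (adjusted p = 0.0593) and -0.40 ± 0.11 in sip53 (adjusted p = 0.0986), of similar size but not past the threshold. Both did pass in the batch-blocked fit (adjusted p = 0.00046 and 0.00122). The P4HA2 call was lost when any 1 library of siLATS1/2, siLATS1/2/p53 or siControl was left out (adjusted p 0.0757 to 0.165). BHLHE40, a clock-linked transcriptional repressor, had 11.53 and 11.62 in the siLATS1/2 libraries, 11.31 and 11.27 in sip53, 11.54 and 11.55 in siLATS1/2/p53 and 11.72 and 11.72 in siControl. Its sip53 libraries were the lowest pair, and it fell by 0.43 ± 0.07 in sip53 relative to siControl (adjusted p = 0.0327). The BHLHE40 call was lost when any 1 library was left out (adjusted p 0.0565 to 0.189). With the batch term it was also called higher in siLATS1/2/p53 than in sip53 (difference 0.25 ± 0.07, adjusted p = 0.0172). P4HA2, BHLHE40 and MXI1 overlap exons of genes annotated on the opposite strand (for P4HA2 and BHLHE40, P4HA2-AS1 and BHLHE40-AS1). The same holds for VEGFA, BNIP3L, P4HA1, ERO1L, HIF1A, PDK1, HK2, ALDOA, ALDOC, GAPDH and ENO1. The library kit does not mark strand, so reads from the bases that such a pair shares cannot be told apart by strand. How much of each gene is shared was not measured. Exons of GPI, PFKP, ALDOA, PGK1 and HIF1A overlap those of other genes annotated on the same strand. ADM, CA12, ANGPTL4 and NDRG1 have no overlap on either strand in the annotation used.

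The other HIF targets passed in no comparison of groups without the batch term. Over the 8 libraries, VEGFA, the main angiogenic growth factor, ranged from 10.88 to 12.37, and the mitophagy receptors BNIP3 and BNIP3L ranged from 7.93 to 8.74 and from 7.97 to 9.19. The collagen-modifying enzymes P4HA1 and LOX ranged from 11.02 to 11.67 and from 10.07 to 11.08, the disulfide oxidase gene ERO1L from 12.08 to 12.83, and the histone demethylase gene KDM3A from 9.28 to 9.66. VEGFA had 11.88 and 11.27 in the siLATS1/2 libraries, 11.84 and 11.17 in sip53, 11.30 and 10.88 in siLATS1/2/p53 and 12.37 and 11.57 in siControl. Its siLATS1/2/p53 libraries lay below both siControl ones while the other groups overlapped siControl. Within each batch, every knockdown library lay below its siControl library. The VEGFA difference from siControl was -0.49 in batch 1 and -0.30 in batch 2 for siLATS1/2, -0.53 in batch 1 and -0.40 in batch 2 for sip53, and -1.06 in batch 1 and -0.69 in batch 2 for siLATS1/2/p53. Over both batches the differences were -0.39 ± 0.34, -0.46 ± 0.34 and -0.88 ± 0.34 in that order and did not pass (adjusted p = 0.525, 0.478 and 0.131), but all 3 passed in the batch-blocked fit (adjusted p = 0.00287, 0.0013 and 2.38e-06). That fit also called VEGFA lower in siLATS1/2/p53 than in siLATS1/2 and sip53 (adjusted p = 0.000514 and 0.00286). All 5 VEGFA calls and all 5 NDRG1 calls of that fit passed with rescaling added. Relative to siControl, the batch-blocked fit called BNIP3L higher in siLATS1/2 (0.36 ± 0.12, SE of that fit, adjusted p = 0.0376) and lower in sip53 (-0.45 ± 0.12, adjusted p = 0.0156). It called P4HA1 higher in siLATS1/2 (0.25 ± 0.08, adjusted p = 0.0307), ERO1L higher in sip53 and siLATS1/2/p53 (adjusted p = 0.00403 and 0.00483) and LOX higher in siLATS1/2/p53 (adjusted p = 0.0339). With rescaling added, LOX in siLATS1/2/p53 did not pass (adjusted p = 0.101). Levels of BNIP3 are uncertain because 39 pseudogenes carry its name.

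The oxygen-sensing genes passed in no comparison of groups in the fit of deposited values without the batch term. HIF1A ranged from 11.83 to 12.54 over the 8 libraries, its partner ARNT from 9.60 to 10.10, and EGLN1, the main HIF prolyl hydroxylase, from 10.41 to 10.80. HIF1A differed by -0.37 ± 0.15 in siLATS1/2 (adjusted p = 0.19) and by -0.40 ± 0.15 in siLATS1/2/p53 (adjusted p = 0.131), both relative to siControl. Its groups did not overlap in these comparisons, as was so for 51.8% and 54.1% of all entries. Both HIF1A differences passed in the batch-blocked fit (adjusted p = 0.0016 and 0.000618). ARNT differed by -0.37 ± 0.12 in siLATS1/2/p53 relative to siControl (adjusted p = 0.0749), and passed after rescaling (adjusted p = 0.0334) and in the batch-blocked fit (adjusted p = 0.00397). Batch-blocked, ARNT was also called lower in siLATS1/2 relative to siControl (adjusted p = 0.0264), and HIF1A lower in siLATS1/2/p53 relative to sip53 (adjusted p = 0.00301). In sip53 the HIF1A difference was -0.05 ± 0.15 (adjusted p = 0.901). HIF1A is controlled mainly through the stability of its protein, which was not measured here.

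Without the batch term few glycolytic enzymes passed, and 12 of the 15 were called in no comparison of groups. With it, 3 of the 15 were called in none, and with rescaling added 8 were called in at least 1. The share of all entries called in no comparison was not counted. HK1, a hexokinase that takes the first step by phosphorylating glucose, had 12.20 and 12.40 in the siLATS1/2 libraries, 12.99 and 13.08 in sip53, 12.65 and 12.60 in siLATS1/2/p53 and 12.83 and 13.01 in siControl. The siLATS1/2 libraries were the lowest pair and did not overlap any other group. HK1 fell by 0.62 ± 0.10 in siLATS1/2 relative to siControl (adjusted p = 0.0161), and the call was lost when any 1 of those 4 libraries was left out (adjusted p 0.0502 to 0.139). Batch-blocked, HK1 was also called lower in siLATS1/2/p53 relative to siControl and to sip53, and higher relative to siLATS1/2 (adjusted p = 0.00554, 0.00114 and 0.00275); with rescaling added the rise did not pass (adjusted p = 0.0624). PFKM, the muscle isoform of phosphofructokinase, had 11.39 and 11.49 in the siLATS1/2 libraries, 11.88 and 11.92 in sip53, 11.48 and 11.57 in siLATS1/2/p53 and 11.73 and 11.75 in siControl. Its sip53 libraries were the highest pair, and it fell by 0.38 ± 0.08 in siLATS1/2/p53 relative to sip53 (adjusted p = 0.0467). The PFKM call was lost when any 1 library was left out (adjusted p 0.0666 to 0.29) and after rescaling (adjusted p = 0.0511). The batch-blocked fit also called PFKM lower in siLATS1/2 and siLATS1/2/p53 relative to siControl (adjusted p = 0.00409 and 0.021). TPI1, the triose phosphate isomerase, had 11.80 and 11.93 in the siLATS1/2 libraries, 12.19 and 12.15 in sip53, 12.37 and 12.23 in siLATS1/2/p53 and 11.94 and 12.15 in siControl. Its siLATS1/2/p53 libraries were the highest pair and did not overlap siLATS1/2, relative to which TPI1 rose by 0.43 ± 0.10 (adjusted p = 0.0318). That call was lost after rescaling (difference 0.28, adjusted p = 0.114), and when any 1 library outside siControl was left out (adjusted p 0.0609 to 0.175). With the batch term TPI1 was also called higher relative to siControl (adjusted p = 0.0254), but not with rescaling added (adjusted p = 0.0778). HK1, PFKM and TPI1 also overlap exons of opposite-strand genes, for PFKM and TPI1 the genes SENP1 and SPSB2.

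The 12 enzymes not called without the batch term spanned the rest of the pathway. ENO1, LDHA and GAPDH, an enolase, the lactate dehydrogenase A subunit and the glyceraldehyde phosphate dehydrogenase, ranged from 15.23 to 15.62, from 14.78 to 15.20 and from 14.29 to 14.83. ALDOA, the main aldolase, ranged from 13.54 to 13.81, and PGK1, which makes the first ATP of the pathway, from 13.22 to 13.50. The isomerase GPI ranged from 13.18 to 13.72, the phosphofructokinase isoforms PFKP and PFKL from 12.99 to 13.35 and from 10.74 to 11.18, HK2 from 11.04 to 11.58, and the mutase PGAM1 from 9.97 to 10.42. Each of these 10 enzymes thus stayed within a span of less than 1 log2 unit, as did the called enzymes HK1, PFKM and TPI1. ALDOC, an aldolase isoform best known from brain, ranged from 7.96 to 8.73 and was 0.55 ± 0.13 higher in sip53 than in siControl without passing (adjusted p = 0.0611, while the batch-blocked fit gave 0.00555). The batch-blocked fit called 9 of these 12 enzymes in 1 or more comparisons, with the matching share of all entries not counted. In siLATS1/2 relative to siControl it called HK2, PGK1, ENO1 and LDHA lower (adjusted p = 0.0273, 0.0263, 0.0279 and 0.0353). Their differences, with the SE of that fit, were -0.23 ± 0.07, -0.21 ± 0.07, -0.24 ± 0.08 and -0.23 ± 0.08. None of these 4 passed with rescaling added to the block (adjusted p = 0.157, 0.139, 0.126 and 0.159). In siLATS1/2/p53 relative to siControl it called GAPDH, GPI and ENO2 higher and HK2 lower (adjusted p = 0.00692, 0.0289, 0.0274 and 0.00364), and with rescaling added GPI and ENO2 did not pass (adjusted p = 0.0973 and 0.0543). Relative to siLATS1/2 it called GPI, PFKL, ALDOC, PGK1, ENO1 and LDHA higher in siLATS1/2/p53, and with rescaling added none of these 6. Relative to sip53 it called GAPDH higher and HK2 lower in siLATS1/2/p53 (adjusted p = 0.0258 and 0.00167). With rescaling added to that fit, PFKP passed in 1 comparison and PGAM1 in 2, each lower. Pseudogenes are named for 12 of the 38 genes, with 62 for GAPDH, 13 for PGAM1, 6 for LDHA and 4 each for ENO1 and TPI1, so these levels are uncertain where reads could be shared.

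Of the 3 regulators, PFKFB3, which makes the allosteric activator of phosphofructokinase, fell in both groups with LATS1/2 siRNA. It had 10.05 and 10.12 in the siLATS1/2 libraries, 10.42 and 10.47 in sip53, 10.19 and 10.19 in siLATS1/2/p53 and 10.58 and 10.63 in siControl. The siLATS1/2 libraries were the lowest pair and siControl the highest, and the 4 groups did not overlap. PFKFB3 fell by 0.52 ± 0.08 in siLATS1/2 (adjusted p = 0.0138) and fell by 0.41 ± 0.08 in siLATS1/2/p53 (adjusted p = 0.0175), each relative to siControl. The difference in sip53 relative to siControl was -0.16 ± 0.08 (adjusted p = 0.294). Each PFKFB3 call was lost when any 1 of its own 4 libraries was left out (adjusted p 0.0596 to 0.123 for siLATS1/2 and 0.0598 to 0.0675 for siLATS1/2/p53). PFKFB4, another enzyme of this family, and PDK1, a kinase that holds back entry of pyruvate into the mitochondria, ranged from 7.51 to 8.25 and from 8.91 to 9.62 and did not pass without the batch term. Batch-blocked, PDK1 was called lower in siLATS1/2 relative to siControl (-0.34 ± 0.10, SE of that fit, adjusted p = 0.0211) and in siLATS1/2/p53 relative to sip53 (-0.40 ± 0.10, adjusted p = 0.0111). With rescaling added, the first of these did not pass (adjusted p = 0.0728). PFKFB3 was also called lower with the batch term in siLATS1/2/p53 relative to sip53 (adjusted p = 0.0323).

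**Figure D2:**
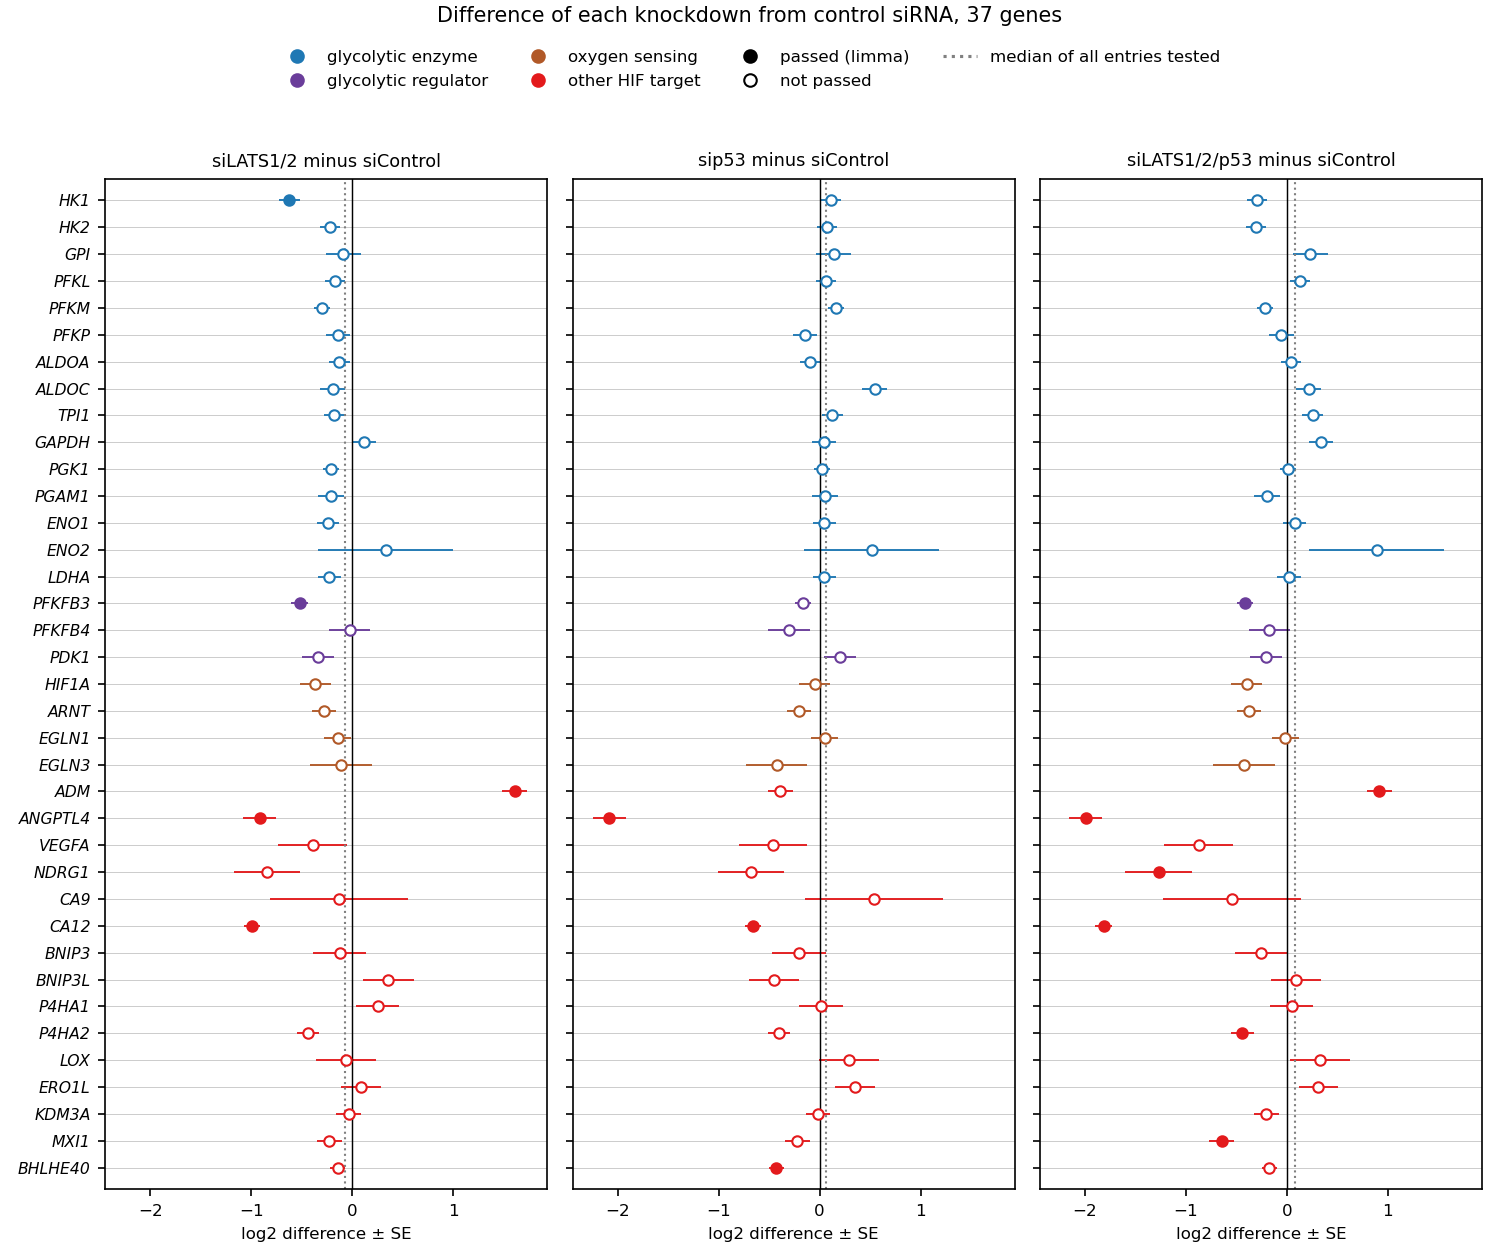
Difference from siControl in log2 units for each of the 37 tested genes in siLATS1/2, sip53 and siLATS1/2/p53, with SE from limma as bars, coloured by role. Filled points passed at an adjusted p under 0.05, and the dotted line is the median of all entries tested. Most enzymes lie near 0, apart from HK1 in siLATS1/2 (-0.62), ALDOC in sip53 (0.55) and the partly floored ENO2. In siLATS1/2/p53, ADM, ANGPTL4, CA12 and NDRG1 stand farther from 0 than any enzyme.

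The first comparison asked what LATS1/2 siRNA did alone. ADM rose, and CA12, ANGPTL4, HK1 and PFKFB3 fell in siLATS1/2 relative to siControl. Of the 37 tested genes, 1 rose, 4 fell and 32 did not pass, that is, 13.5% passed beside 7.7% of the 12315 entries tested (2.81% higher and 4.89% lower). Of the 15 enzymes, 13 had a negative difference and 1 passed, with a median of -0.19. The median was -0.13 over the 15 tested other HIF targets and -0.07 over all entries. After rescaling by medians of ratios the enzyme median was -0.11 and the all-entry median 0.00. In the batch-blocked fit 3 members rose and 15 fell, beside 32% of all entries called (10.5% higher and 21.4% lower), and 6 of the falls were enzymes. With rescaling added to the block, 3 rose and 9 fell, and 2 of the falls were enzymes. That fit called 28% of all entries (1793 higher and 1656 lower of 12315). The count was 2 when any 1 library of siLATS1/2 or siControl was left out.

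For p53 siRNA alone, ANGPTL4, CA12 and BHLHE40 fell in sip53 relative to siControl, and no member rose. Of the 37 tested genes, 0 rose, 3 fell and 34 did not pass, that is, 8.11% passed beside 3.86% of the 12315 entries tested (1.76% higher and 2.1% lower). None of the 15 enzymes or 3 regulators passed, and 13 of the enzymes had a positive difference, with a median of 0.07 beside 0.06 over all entries. The other HIF targets had a median of -0.39, and 11 of 15 were negative. The batch-blocked fit gave 2 rises and 8 falls, beside 26% of all entries called (16% higher and 10% lower). All 8 of those falls were other HIF targets, while 1 enzyme, ALDOC, was among the rises. With rescaling added, 2 rose and 11 fell, beside 1353 higher and 1668 lower of the 12315 entries. The count was 1 when any 1 library of siLATS1/2, sip53 or siControl was left out.

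Under the combined knockdown ADM rose, and CA12, ANGPTL4, NDRG1, MXI1, P4HA2 and PFKFB3 fell in siLATS1/2/p53 relative to siControl. Of the 37 tested genes, 1 rose, 6 fell and 30 did not pass, that is, 18.9% passed beside 14.6% of the 12315 entries tested (9.07% higher and 5.48% lower). A share this near the background is no result about the genes as a group. None of the 15 enzymes passed, and their median was 0.04, beside 0.08 over all entries. The other HIF targets had a median of -0.25, with 1 rise and 5 falls among 15. The 4 oxygen-sensing genes had negative differences (-0.43 to -0.02) and none passed. Batch-blocked, 7 members rose and 12 fell, beside 39.2% of all entries called (25.5% higher and 13.8% lower). With rescaling added, 3 rose and 15 fell, beside 2373 higher and 2312 lower of the 12315 entries. The count was 3 without siControl library 1, siControl library 2 or siLATS1/2/p53 library 2, and 4 without siLATS1/2/p53 library 1.

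When p53 siRNA was added to LATS1/2 siRNA, TPI1 rose, and ADM, ANGPTL4 and CA12 fell in siLATS1/2/p53 relative to siLATS1/2. Of the 37 tested genes, 1 rose, 3 fell and 33 did not pass, that is, 10.8% passed beside 14.5% of the 12315 entries tested (11.3% higher and 3.22% lower). That share was below the background. The comparison had a general shift, with an all-entry median of 0.15 that rescaling took to 0.00. Of the 15 enzymes, 14 had positive differences, with a median of 0.25 as deposited and 0.09 after rescaling. The other HIF targets had a median of -0.27 as deposited and -0.42 after rescaling. After rescaling 0 members rose and 4 fell, TPI1 being lost and MXI1 gained (adjusted p = 0.0253). There were 10 rises and 6 falls in the batch-blocked fit, beside 43.5% of all entries called (33.8% higher and 9.72% lower). With rescaling added to it there were 1 rise and 13 falls, beside 2004 higher and 2190 lower of the 12315 entries. Counts without siLATS1/2 library 1, siLATS1/2 library 2 and siLATS1/2/p53 library 1 were 0, 1 and 1.

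When LATS1/2 siRNA was added to p53 siRNA, ADM rose, and CA12 and PFKM fell in siLATS1/2/p53 relative to sip53. Of the 37 tested genes, 1 rose, 2 fell and 34 did not pass, that is, 8.11% passed beside 3.66% of the 12315 entries tested (2.54% higher and 1.12% lower). The enzymes had 8 positive and 7 negative differences, with a median of 0.03, beside 0.01 over all entries and -0.04 over the other HIF targets. After rescaling 1 member rose and 1 fell, PFKM being lost. A fit blocked on batch gave 4 rises and 11 falls, beside 22.1% of all entries called (12.7% higher and 9.42% lower). With rescaling added it gave 4 rises and 12 falls, beside 1497 higher and 1292 lower of the 12315 entries. The count was 1 without siLATS1/2/p53 library 2.

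The difference that each siRNA made could be set side by side in cells with and without the other siRNA, using comparisons that share no library but do share the batches. For p53 siRNA, 31 of 37 genes (83.8%) had the same sign in siLATS1/2/p53 minus siLATS1/2 as in sip53 minus siControl, beside 75.1% of all entries, and Pearson's r across genes was 0.764 and Spearman's rho 0.746. For LATS1/2 siRNA, 26 of 37 genes (70.3%) had the same sign in siLATS1/2/p53 minus sip53 as in siLATS1/2 minus siControl, beside 68.1% of all entries, with r of 0.756 and rho of 0.664. Genes are not independent replicates, so these values describe the 8 libraries only. The plot of both differences shows ADM far out for LATS1/2 siRNA and ANGPTL4 far out for p53 siRNA, with most enzymes nearer the origin. The interaction, a test of whether the knockdowns add on the log2 scale, was past the threshold for 0 of 37 members and for 0% of the 12315 entries in the limma fit. At an unadjusted p under 0.05 it held 4 members (ANGPTL4, BHLHE40, P4HA2 and PFKFB3) and 807 entries, or 6.55%. Once batch was a term, 1 member, ANGPTL4, passed with a positive interaction, beside 2.03% of entries (1.75% higher and 0.276% lower).

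**Figure D3:**
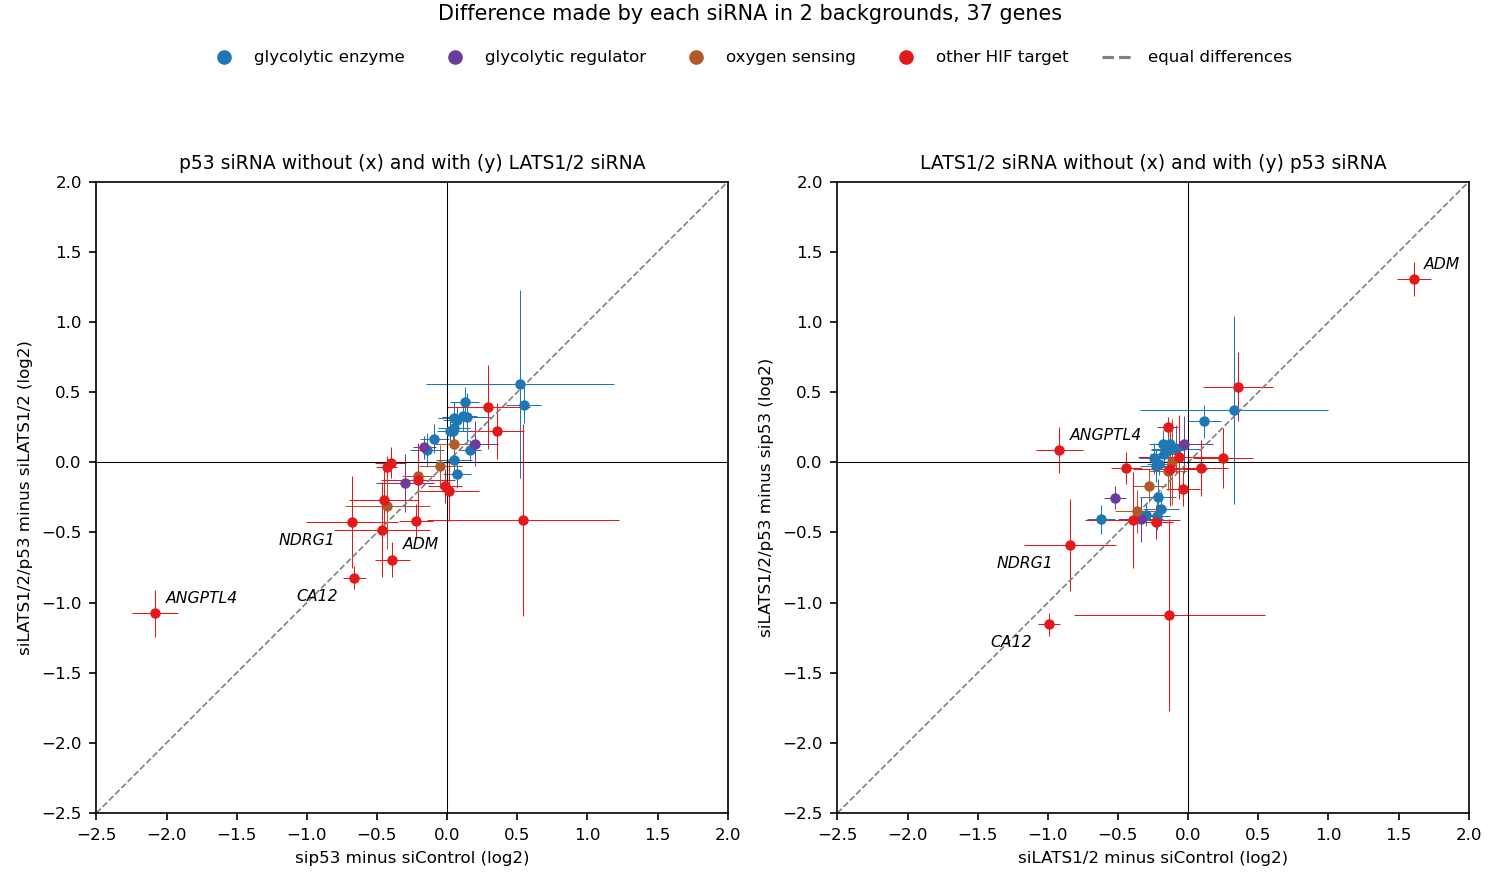
Log2 difference made by p53 siRNA (left panel) and by LATS1/2 siRNA (right panel) for the 37 tested genes, without the other siRNA on the x axis and with it on the y axis; bars are SE from limma. The dashed line marks equal differences, and ANGPTL4 lies 1.00 above it in both panels, which show the same interaction.

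The batches of cells differed in many of these genes, in a comparison that was added after the data had been seen. With the group as a term, 12 members were higher in batch 1 than in batch 2 and 3 were lower, beside 30.3% of all entries called (17.8% higher and 12.5% lower). After rescaling, 11 were higher and 4 lower. Of the 19 tested genes of oxygen sensing and other HIF targets, 10 were higher and 1 lower in batch 1. Of the 18 enzymes and regulators, 2 were higher and 2 lower. VEGFA was 0.62 ± 0.06 higher in batch 1 (adjusted p = 5.62e-06), and was higher there in all 4 groups. LOX was 0.50 ± 0.08 higher (adjusted p = 0.000501), BNIP3 0.43 ± 0.09 higher (adjusted p = 0.00269), P4HA1 0.37 ± 0.06 higher (adjusted p = 0.000369) and HIF1A 0.25 ± 0.05 higher (adjusted p = 0.00233). These genes, and BNIP3L, ERO1L, EGLN1, P4HA2 and PDK1, were higher in batch 1 in all 4 groups. ENO2 and CA9 also passed but were partly at the floor. NDRG1 went the other way and was -0.59 ± 0.07 in batch 1 minus batch 2 (adjusted p = 2.47e-05), as did the enzymes GPI (-0.27 ± 0.05) and PFKP (-0.18 ± 0.05). ADM, CA12 and ANGPTL4 did not pass, with differences of 0.00 ± 0.08, -0.07 ± 0.05 and -0.07 ± 0.09. The direction was the same in all 4 groups for 20 of 37 genes (54.1%), beside 44.7% of all entries. Cell markers moved with the batch as well. Of 8 basal markers, 7 were lower in batch 1 and none higher, KRT14 by 0.79 ± 0.05 (adjusted p = 6.81e-08) in 4 of 4 groups. Of the 4 tested luminal markers, 2 were higher in batch 1, KRT8 by 0.71 ± 0.07 (adjusted p = 6.41e-06), and the fibroblast marker DCN was 3.12 ± 0.12 higher (adjusted p = 1.05e-09), each in 4 of 4 groups. COL1A1 did not pass (0.15 ± 0.12). The part of these markers in the batch differences was not tested. What differed between the batches is not given in the labels, and each group has 1 library from each batch.

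**Figure D4:**
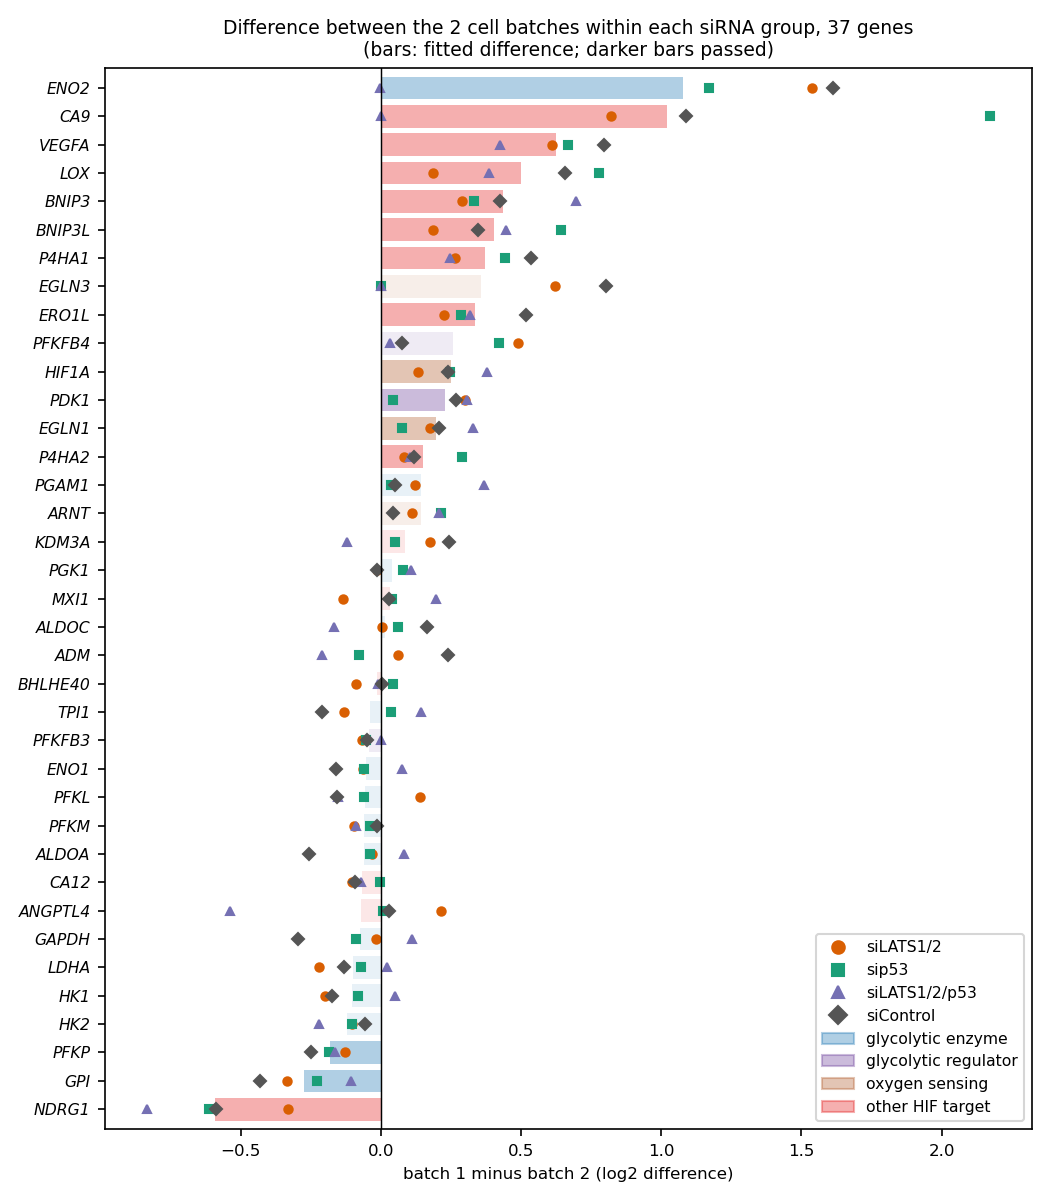
Batch 1 minus batch 2 in log2 units for the 37 tested genes, with points for each group, siControl included, and bars for the fitted difference, darker where it passed. VEGFA, LOX, BNIP3 and P4HA1 lie above 0 in all 4 groups, and NDRG1 lies below 0 in all 4.

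Other genes of the same pathways were read from lists of 36 genes of glucose metabolism, 28 of them tested, and 35 genes of the hypoxia response, 32 of them tested. In siLATS1/2 relative to siControl, 1 glucose gene rose and none fell, and 4 hypoxia genes rose and 2 fell. That was 3.57% of the glucose list and 18.8% of the hypoxia list, beside 7.7% of all entries. Batch-blocked, 3 rose and 6 fell of the glucose genes, and 6 rose and 7 fell of the hypoxia genes, beside 32% of all entries. The glucose transporter SLC2A1 had 12.81 and 12.81 in the siLATS1/2 libraries, 12.52 and 12.58 in sip53, 12.76 and 12.91 in siLATS1/2/p53 and 12.30 and 12.35 in siControl, and rose by 0.49 ± 0.08 in siLATS1/2 (adjusted p = 0.0177) and rose by 0.51 ± 0.08 in siLATS1/2/p53 (adjusted p = 0.00902), both relative to siControl. Both groups with LATS1/2 siRNA lay above siControl for this gene without overlap. EPAS1, which encodes the HIF2A subunit, fell by 0.46 ± 0.09 in siLATS1/2 (adjusted p = 0.0262) and fell by 0.55 ± 0.09 in siLATS1/2/p53 (adjusted p = 0.00937) relative to siControl. CITED2, which competes with HIF1A for the coactivator p300, rose by 0.78 ± 0.17 (adjusted p = 0.0386) and rose by 1.07 ± 0.17 (adjusted p = 0.00868) in the same comparisons. ZNF395 fell in siLATS1/2, by 0.84 ± 0.11 (adjusted p = 0.00868). ARNT2, a relative of ARNT, stood at 6.38 and 5.95 in siLATS1/2 and at the floor in each siControl library, and it passed (adjusted p = 0.0338) with a difference that the floor bounds from below.

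In sip53 relative to siControl, 1 glucose gene and 2 hypoxia genes fell and none rose, or 3.57% of the glucose list and 6.25% of the hypoxia list, beside 3.86% of all entries. With the batch term, 4 rose and 1 fell in the glucose list and 4 rose and 10 fell in the hypoxia list, beside 26% of all entries. C12orf5, also known as TIGAR, a p53 target that lowers fructose 2,6-bisphosphate, the product of the PFKFB enzymes, had 10.14 and 10.06 in the siLATS1/2 libraries, 8.89 and 8.99 in sip53, 9.24 and 8.95 in siLATS1/2/p53 and 10.04 and 10.05 in siControl. All libraries with p53 siRNA lay below all others, and it fell by 1.11 ± 0.12 in sip53 relative to siControl (adjusted p = 0.00913). The kinase gene RIOK3, of the hypoxia list, fell by 0.42 ± 0.08 (adjusted p = 0.0401). In siLATS1/2/p53 relative to siControl, 2 glucose genes rose and 2 fell, and 4 hypoxia genes rose and 4 fell, or 14.3% of the glucose list and 25% of the hypoxia list, beside 14.6% of all entries. The batch-blocked counts were 9 up and 2 down for glucose genes and 9 up and 9 down for hypoxia genes, beside 39.2% of all entries. Besides SLC2A1 these glucose genes were PGM2, a phosphopentomutase, which rose by 0.57 ± 0.09 (adjusted p = 0.00973), C12orf5, and the glycogen branching enzyme GBE1, which fell by 0.35 ± 0.09 (adjusted p = 0.0374). CITED2, EPAS1 and HMOX1 were among those hypoxia genes. Adding p53 siRNA to LATS1/2 siRNA gave 2 rises (TKT and PGM2) and 1 fall (C12orf5) among the glucose genes, and 1 rise (MIF) and 2 falls (RIOK3 among them) in the hypoxia list, or 10.7% of the glucose list and 9.38% of the hypoxia list, beside 14.5% of all entries. Batch-blocked, 14 rose and 1 fell among glucose genes and 9 rose and 7 fell among hypoxia genes, beside 43.5% of all entries. With rescaling added these became 6 and 4 for glucose genes and 2 and 11 for hypoxia genes, beside 2004 higher and 2190 lower of all 12315 entries. The rises of TKT, PGM2 and MIF did not pass after rescaling (adjusted p = 0.0967, 0.203 and 0.072). In siLATS1/2/p53 relative to sip53 no glucose gene passed, and 1 hypoxia gene, the heme oxygenase HMOX1, rose by 1.03 ± 0.20 (adjusted p = 0.0367), beside 3.66% of all entries. With the batch term, 6 rose and 1 fell in the glucose list and 4 rose and 3 fell in the hypoxia list, beside 22.1%.

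Promoter sequence was compared over the 35 of 38 genes with an entry in the RefSeq table, each taken from 250 bases before to 50 after 1 annotated start (300 bases). VEGFA, NDRG1 and BNIP3L had no entry. ACGTG or GCGTG, on either strand, occurred in 28 of 35 (80%), beside 48.4% of all 35116 promoters of that length. The share was 83.3% for the 18 enzymes and regulators and 76.5% for the 17 genes of oxygen sensing and other HIF targets. ACGTG alone was in 54.3% of the genes and 21.4% of all promoters. The E box CACGTG, which contains ACGTG, was in 20% of the genes and 7.26% of all promoters. GGAATG, the motif of the TEAD factors that YAP and TAZ bind, was in 14.3% of the genes and 14% of all promoters, and the p53 half-site in 5.71% and 6.63%. These are matches of letters in 1 window per gene and carry no evidence of binding.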

How the data were processed

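Polyadenylated RNA of 8 libraries was measured, 2 for each of 4 siRNA groups, taken from the labels. A TruSeq version 2 kit, which does not mark strand, was used and the libraries shared a lane, per the labels' protocols. TopHat and hg19 are named in the submitters' processing notes, without a version. For the read counter, annotation, scaling and depth nothing is given in the sources used here. The authors deposited normalised log2 expression levels, with every value below 5 (32 on the linear scale) set to 5. This can understate or hide differences of low genes. Base 2 was assumed from the range of the values. The per-library columns equalled the series table for 8 of 8 libraries.

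The deposited log2 values were fitted with limma (version 3.58.1, under R version 4.3.3, using its mean-variance trend) over all 4 groups together (leaving 4 residual degrees of freedom, 3 with the batch as a block), with no pseudocount. Tests covered the 12315 of 29991 entries that exceeded the floor in 2 or more libraries, and 17422 entries never exceeded it. P-values were two-sided and adjusted by the Benjamini-Hochberg method, with a threshold of 0.05. The procedure was tested on simulated data. Same-numbered libraries shared a batch of cells per the labels, and after group means were subtracted they correlated at 0.565 to 0.726 in the 6 pairs of groups. The fit with this batch as a block changed many calls and counts. Its values are printed for most changed calls of the members described, and as counts for classes and lists. Rescaling used the median of ratios over entries above the floor in all libraries. Other alternatives were filters, pseudocounts, the variance trend, only the groups compared, and each library left out in turn.

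The genes, lists and rules were chosen with earlier results of these data known. Members that passed in any comparison were named with their value in every library, and the others by class with ranges. From each pathway list, up to 4 genes per comparison were named, by smallest p. VEGFA, HIF1A, ALDOC and the genes named for a call in the blocked fit alone were singled out after their values were seen. Promoters came from RefSeq (GRCh38.p14), and pseudogenes and overlaps from GENCODE 29. Some results taken by these rules, among them the transcript targeted by the p53 siRNA, are not reported here.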

Additional observations from a re-analysis of the deposited data

How the results depend on the processing

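Of 22 calls of single genes, 7 passed with any 1 library left out: ADM and CA12 in siLATS1/2 and in siLATS1/2/p53, and ANGPTL4 in sip53 and in siLATS1/2/p53, all relative to siControl, and CA12 in siLATS1/2/p53 relative to sip53. None of the 22 reversed under the alternatives run. All 22 passed with the batch as a block, with and without rescaling, and with either pseudocount (1 or 32). Rescaling alone lost 2 calls (TPI1 and PFKM), the strict and the absent filter 1 each (PFKM and NDRG1), and the fit without a variance trend 5 (BHLHE40, NDRG1, P4HA2, TPI1 and PFKM). Under the paired fit, with the batch as a block, the members called were 18 in siLATS1/2, 10 in sip53 and 19 in siLATS1/2/p53 relative to siControl, 16 in siLATS1/2/p53 relative to siLATS1/2, 15 relative to sip53, and 1 for the interaction. With the block and rescaling they were 12, 13, 18, 14, 16 and 0 in the same order. With only the groups compared in the fit, which leaves fewer samples to estimate the spread, they were 0, 0, 2, 0 and 0. With 1 library left out, they ranged from 2 to 5, 1 to 2, 3 to 6, 0 to 4, 1 to 2 and 0 to 0; the lone library of a group was then assumed to vary like the others, and batch differences entered the comparison. The cause of these shifts was not tested otherwise. The floor limits ANKRD37, CA9, EGLN3 and ENO2, and unknown depth limits all low levels.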
